A study of Mus musculus with 8 samples.

Results

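Rab GTPases are the largest family of small GTPases that steer membrane traffic. Each switches between a GDP-bound form, kept soluble by an escort protein, and a GTP-bound form on a particular membrane, where it recruits motors, tethers and fusion factors. Guanine nucleotide exchange factors (GEFs) switch a Rab on and GTPase-activating proteins (GAPs) switch it off. TRAPP complexes are such exchange factors: Trappc1 encodes a small core subunit of them, and they are best known for acting on the Golgi Rabs Rab1 and Rab11. In T cells, Rabs carry receptors to and from the surface and, in cytotoxic cells, move lytic granules to the contact with the target.

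The members were all symbols made of Rab, a number and at most a letter and a digit, so that effectors and regulators of Rabs were left out. There were 57 such genes among the 23337 symbols in the tables. The rule used gene names and no measured value, but the family was picked for description with earlier results of these data known. Rab1 and Rab7l1 are the older symbols of Rab1a and Rab29.

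Messenger RNA had been sequenced from naive T cells, sorted as CD62L-positive and CD44-low from spleens and mLNs (as the labels abbreviate the nodes) of mice aged 4 weeks. The 4 groups, with 2 libraries each, were CD4 TRAPPC1 KO, CD4 WT, CD8 TRAPPC1 KO and CD8 WT. KO mice were CD4-cre Trappc1 cKO mice: regulatory elements of Cd4 drive the recombinase in developing T cells, so that it acts before the CD4 and CD8 lineages part. Which part of Trappc1 was deleted, whether the WT mice carried the recombinase, and whether replicates came from separate mice were not stated by any source used here. P-values therefore reflect only how these libraries varied, and that variation may be technical. Levels are in TPM, a share of all transcripts corrected for transcript length, with the same total for each library. Genes can thus be compared with each other within a library. Libraries are less safely compared, because a share depends on all other transcripts in its library. Median-of-ratios size factors, an alternative scaling, ran from 0.815 to 1.18.

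Depth was 3.03 to 4.01 gigabases of aligned sequence, lowest in the CD4 KO libraries (3.03 and 3.22). Fewer symbols were listed at 0 in KO than in WT, without overlap in either lineage. The count was 5952 and 6919 in CD4 KO, against 10090 and 7810 in CD4 WT. In CD8 cells it was 8566 and 8286 in KO, against 10634 and 9762 in WT. The cause of this difference was not tested. Trappc1 itself stood at 30.5 and 32.8 TPM in the CD4 KO libraries, against 78.7 and 55.0 TPM in the CD4 WT libraries. In the CD8 KO libraries it stood at 56.9 and 45.6 TPM, against 81.2 and 40.3 TPM in the CD8 WT libraries. The lowest CD8 value thus came from the library labelled CD8 WT replicate 2, which on unscaled TPM goes against that label. That library had the lowest size factor (0.815, against 0.964 to 1.18 elsewhere). Divided by these factors, its Trappc1 value lay above that of CD8 KO replicate 2 (factor 0.996). The lowest place of this library thus held only on unscaled TPM. Neither the CD4 nor the CD8 difference passed the test (limma, adjusted p = 0.235 for CD4 cells, 0.869 for CD8 cells). A value per gene does not check the deleted part. That library also stood apart in markers of other cells. The summed level of 9 T cell markers was 3151 TPM there, against 4900 to 7372 TPM in the other 7 libraries. Its 12 neutrophil and macrophage markers summed to 30101 TPM, against 73.8 to 2197 TPM elsewhere, and its 10 erythroid markers to 93184 TPM, against 16.2 to 2253 TPM. The lineage markers separated the CD4 from the CD8 libraries. Cd4 and Zbtb7b summed to 546 to 790 TPM in the CD4 libraries and to 2.90 to 15.5 TPM in the CD8 libraries. Cd8a, Cd8b1 and Runx3 summed to 47.0 to 86.7 TPM in the CD4 libraries. Their sum was 872 TPM in CD8 WT replicate 2, against 2314 to 2830 TPM in the other CD8 libraries.

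Of the 57 Rab genes, 44 averaged 1 TPM or more across all 8 libraries and were tested. The 13 below it were Rab3b, Rab3c, Rab9b, Rab13, Rab15, Rab17, Rab20, Rab27b, Rab36, Rab38, Rab39, Rab39b and Rab40b, whose highest value in any library was 3.63 TPM, for Rab13. A total of 38 Rab genes were listed above 0 in every library, 19 were listed at 0 in at least 1, and none was listed at 0 in all 8. Of the tested genes, 13 averaged at least 100 TPM, 19 averaged 10 to 100 TPM and 12 averaged 1 to 10 TPM. Rab25, Rab30, Rab31, Rab33a, Rab34 and Rab44 passed with a mean under 1 TPM in at least 1 group, and 38 reached 1 TPM in every group.

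**Figure D1:**
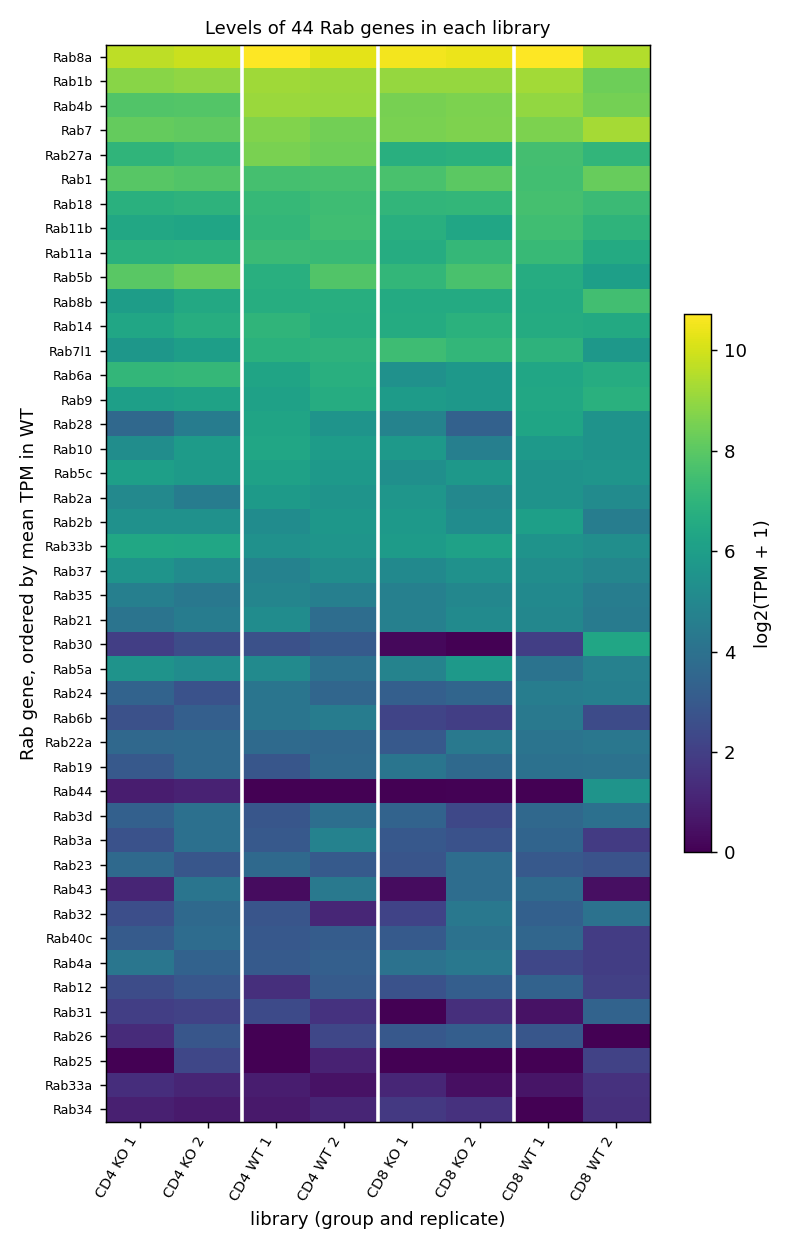
Levels of the 44 tested Rab genes (rows, ordered by mean TPM over the 4 WT libraries) in the 8 libraries (columns, KO left of WT within each lineage), as log2(TPM + 1), shown by colour. Rab8a leads in every library, and Rab30 and Rab44 are brightest in the library labelled CD8 WT replicate 2, at 81.4 and 46.5 TPM.

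A few members held most of the family's level. The 8 highest in WT, Rab8a, Rab1b, Rab4b, Rab7, Rab27a, Rab1, Rab18 and Rab11b, made up 63.6% to 75.0% of the summed Rab level in each library. Rab8a, which directs vesicles from the Golgi to the plasma membrane, ranked first in every library. Its level was 802 and 943 TPM in CD4 KO, against 1667 and 1259 TPM in CD4 WT, and 1497 and 1344 TPM in CD8 KO, against 1693 and 718 TPM in CD8 WT. Its CD4 KO libraries lay below the CD4 WT libraries, while in CD8 cells the WT libraries enclosed the KO libraries. The differences on the log2(TPM + 1) scale were -0.74 ± 0.40 in CD4 and 0.36 ± 0.40 in CD8 cells (SE, limma), and neither passed (adjusted p = 0.386 and 0.678).

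Summed over the 57 genes, the Rab level was 3619 and 3951 TPM in CD4 KO, against 5418 and 5010 TPM in CD4 WT, so that the groups did not overlap. The mean was 3785 ± 235 TPM in CD4 KO and 5214 ± 289 TPM in CD4 WT (SD, n = 2 each). The means differed by -1429 TPM (KO minus WT), and Rab8a alone by -591 TPM. In CD8 cells the sum was 4514 and 4575 TPM in KO, against 5247 and 4013 TPM in WT, and the WT libraries enclosed the KO libraries. When TPM was rescaled by median-of-ratios size factors, which assume that most genes do not differ, the CD4 means differed by -705 scaled TPM, still without overlap. On that scale the CD8 KO libraries (4411 and 4595) also lay below the CD8 WT libraries (4831 and 4921). No test was made of these sums. In sorted bulk samples, fewer cells of a type and less RNA per cell cannot be told apart.

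The first question was which Rab genes differed with loss of Trappc1. In the average of the CD4 and CD8 differences, which weighs both lineages equally, 2 of 44 Rab genes fell, Rab28 and Rab27a, and none rose (limma, adjusted p under 0.05). Among all 11786 genes tested, 4.12% were called in this comparison, 2.76% as lower and 1.36% as higher, so that the Rab share was near the background. A total of 12 Rab genes had an unadjusted p under 0.05, against 22.6% of all genes. The median difference over the 44 Rab genes was -0.16, with 16 higher and 28 lower, and the median over all genes was -0.07. The count of called Rab genes was 0 without any single CD4 library or either CD8 KO library, 11 without CD8 WT replicate 1 and 6 without CD8 WT replicate 2.

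Within a lineage no Rab gene was called by limma. The fit used 1 spread per gene for all 4 groups, so that the CD8 WT libraries also entered the SE in CD4 cells. Library weights, an alternative setting, were 0.3555 for each CD8 WT library, against 1.238 to 1.795 elsewhere. In CD4 cells 0 of 44 passed, with 7 at an unadjusted p under 0.05 (16.7% of all genes), where 0.713% of all genes were called. In CD8 cells 0 of 44 passed, with 8 at an unadjusted p under 0.05 (15.1% of all genes), where 0.297% of all genes were called. The Rab medians were -0.08 in CD4 cells, against -0.16 for all genes, and -0.02 in CD8 cells, against 0.05 for all genes. With median-of-ratios scaling the CD4 medians were 0.07 for Rab genes (23 higher and 21 lower) and 0.03 for all genes. Without CD8 WT replicate 1, 3 Rab genes were called in CD4 cells and 7 in CD8 cells, and without CD8 WT replicate 2, 3 were called in CD4 cells. Both CD4 KO libraries lay above both CD4 WT libraries for 8 Rab genes (21.7% of all genes) and below for 17 (36.5% of all genes). In CD8 cells the KO libraries lay above both WT libraries for 7 Rab genes (23.0% of all genes) and below for 11 (19.1% of all genes).

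**Figure D2:**
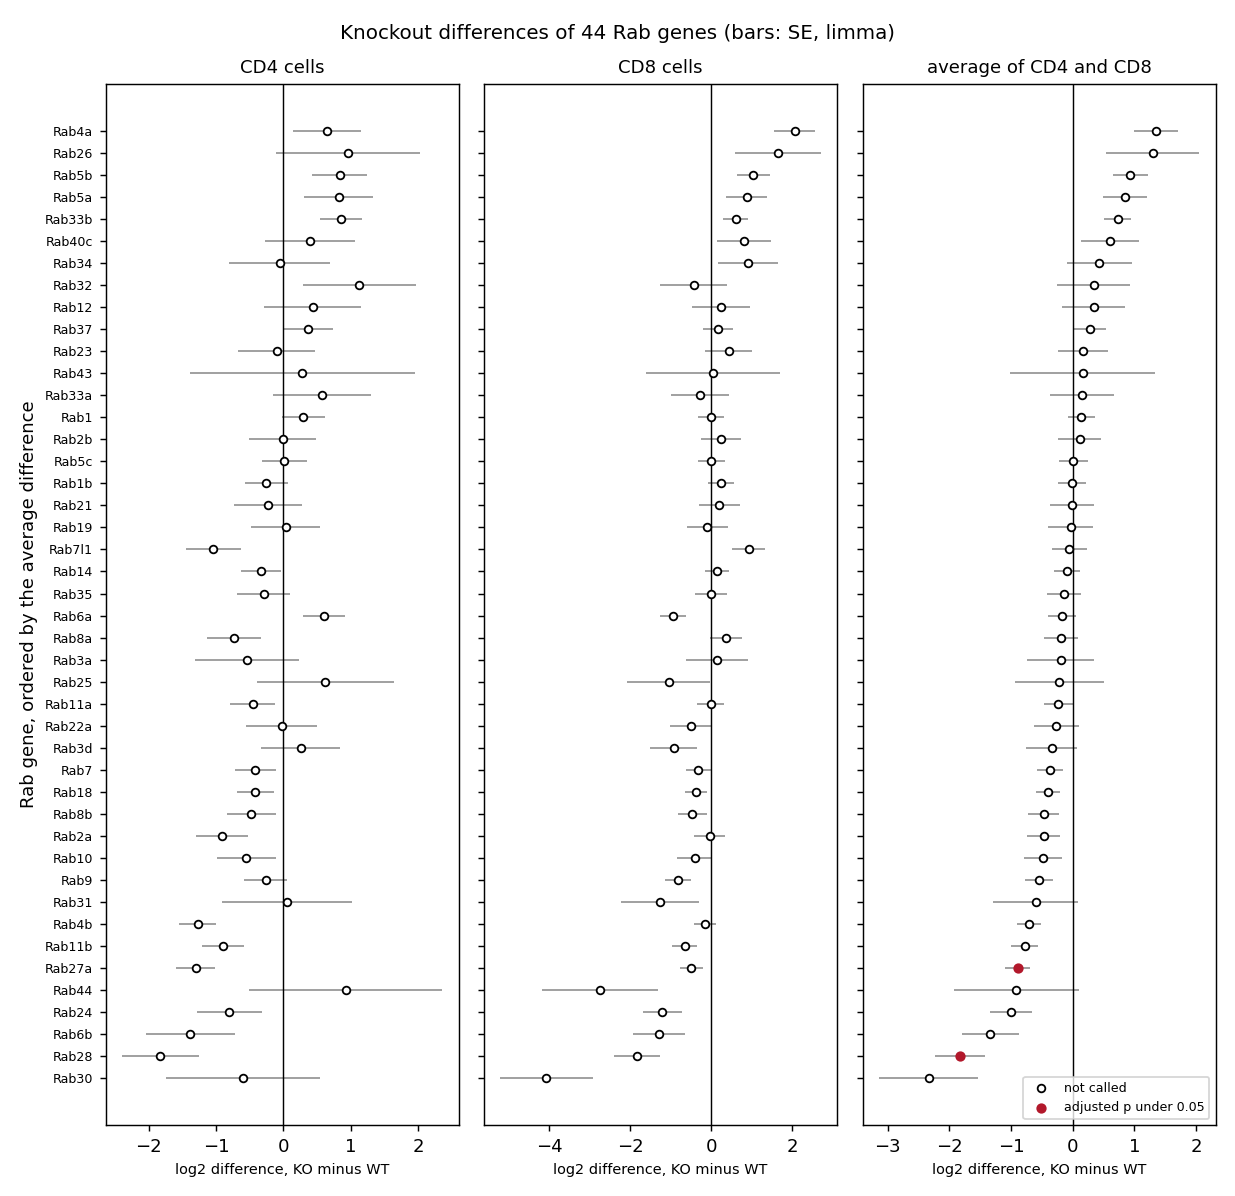
Differences KO minus WT for the 44 tested Rab genes (rows, ordered by the average) in CD4 cells, in CD8 cells and in their average, on the log2(TPM + 1) scale, with bars for the SE from limma. Only Rab28 (-1.83) and Rab27a (-0.89) in the average are filled, having passed at an adjusted p under 0.05.

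Rab28 is a distant member of the family, known in worms and mammals for its place at cilia and, in photoreceptors, for the shedding of membrane discs. The gene lies on chromosome 5 from 41624976 to 41708155 on the minus strand (mm10, positions as the tables give them) and spans 83.2 kb. It stood at 11.5 and 21.4 TPM in CD4 KO, against 75.0 and 45.3 TPM in CD4 WT, and at 27.2 and 9.05 TPM in CD8 KO, against 79.0 and 44.3 TPM in CD8 WT. All 4 KO libraries lay below all 4 WT libraries. The average difference was -1.83 ± 0.40 on the log2 scale (SE, limma, adjusted p = 0.0392), with nearly equal parts of -1.82 in CD4 and -1.84 in CD8 cells, neither of which passed alone (adjusted p = 0.157 and 0.211).

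Rab27a docks secretory granules at the plasma membrane, and its loss in people and in the ashen mouse prevents cytotoxic T cells from releasing lytic granules. It lies on chromosome 9 from 73044865 to 73097592 on the plus strand (mm10) and spans 52.7 kb. It stood at 130 and 153 TPM in CD4 KO, against 377 and 323 TPM in CD4 WT, and at 109 and 114 TPM in CD8 KO, against 185 and 131 TPM in CD8 WT. The KO libraries lay below the WT libraries in both lineages, with a gap in CD8 cells between 114 and 131 TPM. The average difference was -0.89 ± 0.21 (SE, limma, adjusted p = 0.0448), with -1.30 ± 0.29 in CD4 cells (adjusted p = 0.0816) and -0.49 ± 0.29 in CD8 cells (adjusted p = 0.454). The difference between the lineages did not pass (0.82 ± 0.41, CD8 minus CD4, adjusted p = 0.701).

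Both calls were close to the threshold. Without any single CD4 library or either CD8 KO library they were lost: the adjusted p of Rab28 then lay between 0.0591 (without CD8 KO replicate 1) and 0.206 (without CD4 KO replicate 1), and that of Rab27a between 0.118 and 0.221. Both held without CD8 WT replicate 1 (Rab28 adjusted p = 0.0499, Rab27a 0.0174) and without CD8 WT replicate 2 (0.0319 and 0.0102). The difference stayed negative in every setting tried, from -2.20 to -1.24 for Rab28 and from -1.02 to -0.54 for Rab27a.

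**Figure D3:**
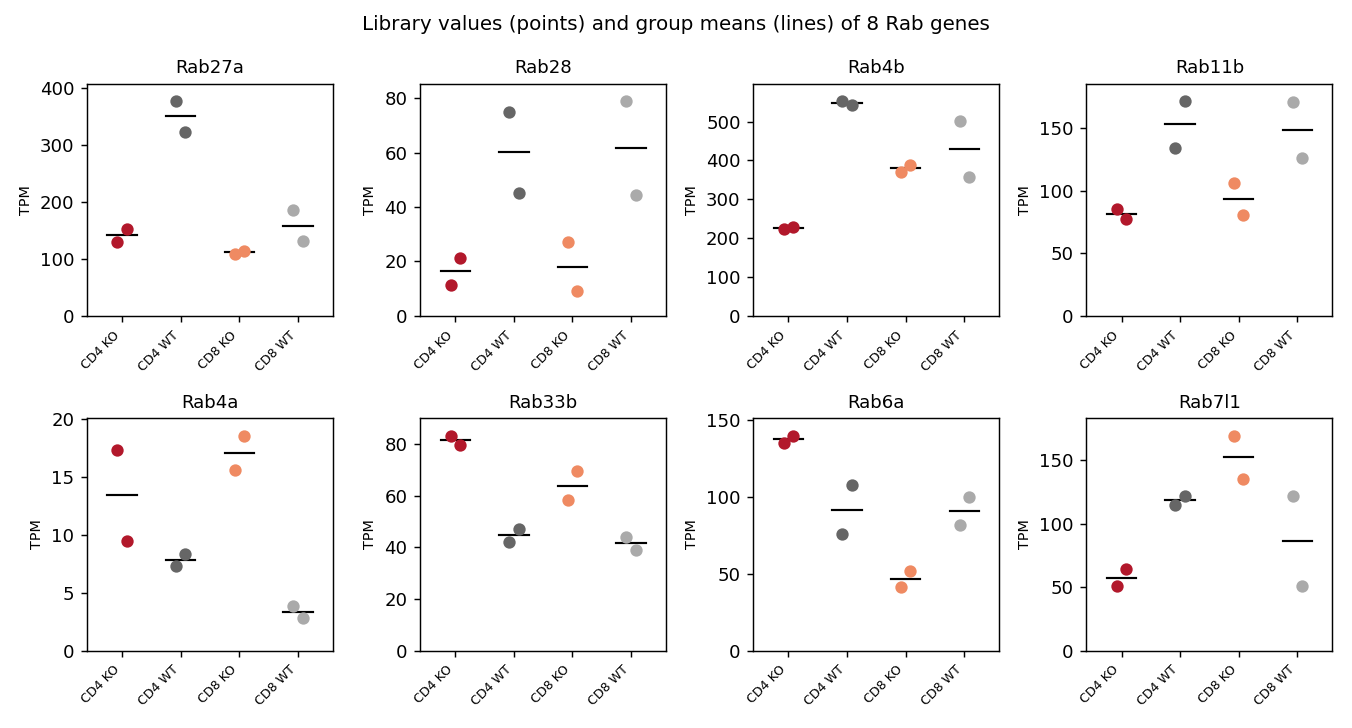
TPM of 8 Rab genes in the 4 groups (each point a library, each line a group mean). Rab27a, Rab28 and Rab11b are lower and Rab4a and Rab33b higher in KO without overlap in both lineages, whereas Rab6a and Rab7l1 differ in opposite directions in CD4 and CD8 cells.

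Promoters are shown for 4 of the 5 Rab genes with the lowest p in the averaged comparison, the members that moved or came nearest to it. Rab4a, also among the 5 lowest, had no listed promoter and is named only. Each sequence runs from 250 bases before to 50 bases after a RefSeq start on build GRCm38.p6, and capitals mark matches on either strand to 5 motifs. These were the E-box CACGTG, the core of ETS factor sites, spelled CCGGAAG, the GC box, spelled GGGCGG, the element spelled CCAAT, which nuclear factor Y binds, and the core promoter element spelled TATAAA.
Rab28, chr5:41708130-41708429, minus strand: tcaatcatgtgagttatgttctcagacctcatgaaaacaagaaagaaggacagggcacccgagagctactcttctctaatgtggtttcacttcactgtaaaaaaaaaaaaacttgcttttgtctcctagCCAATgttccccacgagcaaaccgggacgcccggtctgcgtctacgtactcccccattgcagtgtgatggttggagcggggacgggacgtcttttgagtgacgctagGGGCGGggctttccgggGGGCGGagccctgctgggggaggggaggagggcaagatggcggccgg
Rab27a, chr9:73044560-73044859, plus strand: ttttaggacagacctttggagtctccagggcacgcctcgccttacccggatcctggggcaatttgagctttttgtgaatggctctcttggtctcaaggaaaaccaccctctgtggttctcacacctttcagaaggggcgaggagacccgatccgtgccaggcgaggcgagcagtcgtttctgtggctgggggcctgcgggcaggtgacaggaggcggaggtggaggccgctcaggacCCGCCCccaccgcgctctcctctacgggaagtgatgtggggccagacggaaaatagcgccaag
Rab4b, chr7:27178834-27179133, minus strand: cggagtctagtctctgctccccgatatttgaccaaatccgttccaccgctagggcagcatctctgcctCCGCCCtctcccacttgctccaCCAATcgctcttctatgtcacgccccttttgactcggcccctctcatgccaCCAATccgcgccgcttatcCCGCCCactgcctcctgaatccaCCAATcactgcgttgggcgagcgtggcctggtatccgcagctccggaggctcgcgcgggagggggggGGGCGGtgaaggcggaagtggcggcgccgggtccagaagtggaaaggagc
Rab11b, chr17:33760437-33760736, minus strand: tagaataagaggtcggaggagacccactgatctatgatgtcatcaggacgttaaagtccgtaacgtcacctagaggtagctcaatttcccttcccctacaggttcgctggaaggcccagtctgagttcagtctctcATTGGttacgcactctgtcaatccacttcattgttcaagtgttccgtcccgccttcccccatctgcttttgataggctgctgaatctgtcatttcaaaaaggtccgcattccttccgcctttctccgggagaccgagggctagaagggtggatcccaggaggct

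No motif was shared by all 4 printed promoters: the GC box matched in Rab28, Rab27a and Rab4b, and CCAAT in Rab28, Rab4b and Rab11b. A second RefSeq start of Rab27a, not printed, held 2 CCAAT matches, 1 CACGTG match and no GC box. Counting any start of a gene, CCAAT occurred in all 4, and in 25 of the 47 members with a listed promoter (53.2%). The shares over all promoters given below are per promoter and do not apply to that count. GC content of the printed promoters ran from 51.3% (Rab11b) to 64.3% (Rab4b), against a median of 52.7% over the 32851 promoters of the table. A promoter was listed for 47 of the 57 members, which had 59 starts between them. Counted per promoter, the GC box was found in 40 of the 59 (67.8%), against 35.7% of all promoters, and CCAAT in 25 (42.4%), against 37.4%. CACGTG matched in 6 (10.2%, against 7.15%), CCGGAAG in 5 (8.47%, against 8.86%) and TATAAA in 3 (5.08%, against 13.6%). A match is a string of letters in this window and says nothing of binding.

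The Rabs of the early secretory pathway carry cargo from the endoplasmic reticulum to and through the Golgi. Of these, 13 were tested and 0 called in the average (limma, 3 at an unadjusted p under 0.05, against 22.6% of all genes). A total of 6 were higher and 7 lower, with a median of -0.01. Rab1 and Rab1b, the Rabs that TRAPP complexes activate for entry into the Golgi, did not pass. Rab1 stood at 245 and 223 TPM in CD4 KO, against 189 and 193 TPM in CD4 WT, and at 202 and 256 TPM in CD8 KO, against 177 and 296 TPM in CD8 WT. Rab1b stood at 455 and 493 TPM in CD4 KO, against 582 and 547 TPM in CD4 WT, and at 527 and 528 TPM in CD8 KO, against 609 and 329 TPM in CD8 WT. In CD4 cells the pair lay apart without overlap in opposite directions, while in CD8 cells the WT libraries enclosed the KO libraries of both genes. The average differences were 0.14 ± 0.22 for Rab1 and -0.01 ± 0.23 for Rab1b (SE, limma, adjusted p = 0.747 and 0.988). Rab1 made up 35.0% and 31.1% of the Rab1 and Rab1b total in CD4 KO, against 24.5% and 26.0% in CD4 WT.

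The wider list of Rabs for which nucleotide exchange by a TRAPP complex has been reported in yeast, flies or mammals held 8 tested members, Rab1, Rab1b, Rab11a, Rab11b, Rab18, Rab19, Rab30 and Rab43. None was called in the average (limma, 2 at an unadjusted p under 0.05, against 22.6% of all genes). A total of 2 were higher and 6 lower, with a median of -0.13. With median-of-ratios scaling 4 were higher and 4 lower. Rab11b, a Rab of recycling endosomes, came nearest, at 85.0 and 77.8 TPM in CD4 KO, against 135 and 172 TPM in CD4 WT, and at 106 and 80.8 TPM in CD8 KO, against 171 and 126 TPM in CD8 WT. All 4 KO libraries lay below all 4 WT libraries, with an average difference of -0.78 ± 0.22 (SE, limma, adjusted p = 0.0793). To see where reads could belong to other genes, the 50-base words of each gene's transcripts in the GENCODE M21 annotation were looked up in the transcripts of all other genes, on either strand. Of those of Rab11b, 13.6% were shared, mostly with a pseudogene, against 3.59% for Rab27a and 0% for Rab28.

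Rab11a, its close relative, stood at 110 and 113 TPM in CD4 KO, against 159 and 149 TPM in CD4 WT, and at 97.9 and 140 TPM in CD8 KO, against 150 and 92.2 TPM in CD8 WT, so that the groups overlapped in CD8 cells alone (average -0.23 ± 0.24, adjusted p = 0.602). Rab18, a Rab of lipid droplets and the endoplasmic reticulum, stood at 110 and 121 TPM in CD4 KO, against 144 and 167 TPM in CD4 WT, and at 133 and 136 TPM in CD8 KO, against 190 and 160 TPM in CD8 WT. The KO libraries lay below the WT libraries in both lineages, by -0.39 ± 0.19 on average (SE, limma, adjusted p = 0.267).

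Rab19, a little-studied Golgi Rab, stood at 6.96 and 11.8 TPM in CD4 KO, against 6.37 and 12.2 TPM in CD4 WT, and at 17.0 and 11.5 TPM in CD8 KO, against 14.9 and 15.3 TPM in CD8 WT, with overlap in both lineages. Rab43, of the Golgi, differed more between replicates than between groups. It stood at 1.13 and 16.9 TPM in CD4 KO, against 0.292 and 19.0 TPM in CD4 WT, and at 0.281 and 13.4 TPM in CD8 KO, against 12.0 and 0.340 TPM in CD8 WT. Of its 50-base words 74.5% also occur in an overlapping annotated transcript (Gm45140), so that its level is uncertain.

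Rab33b, a Golgi Rab that also acts in autophagy, was higher in KO without overlap in both lineages, though it did not pass. It stood at 83.3 and 79.8 TPM in CD4 KO, against 42.2 and 47.1 TPM in CD4 WT, and at 58.4 and 69.5 TPM in CD8 KO, against 44.1 and 39.0 TPM in CD8 WT. Every KO library lay above every WT library, by 0.73 ± 0.22 on average (SE, limma, adjusted p = 0.0885); with median-of-ratios scaling it was among the called genes. Its 50-base words were shared for 21.2%, mostly with an antisense transcript, and no source used here says whether the counting used strand. Rab6b, the form of Rab6 best known from neurons, was at 5.36 and 8.46 TPM in CD4 KO, against 16.8 and 21.9 TPM in CD4 WT, and at 3.63 and 3.00 TPM in CD8 KO, against 19.2 and 4.48 TPM in CD8 WT. The groups did not overlap within either lineage, and the average of -1.33 ± 0.46 did not pass (limma, adjusted p = 0.128). The remaining Golgi and early secretory members, Rab2a, Rab2b, Rab33a and Rab34, differed on average by -0.47 (Rab2a) to 0.43 (Rab34).

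The 9 Rabs of early endosomes, where internalised receptors are sorted, included no called gene in the average (limma), with 4 higher and 5 lower. An unadjusted p under 0.05 was found for 4 of the 9, against 22.6% of all genes. Within the Rab4 pair, which returns receptors from early endosomes to the surface, the average differences had opposite signs. The groups of Rab4b overlapped in CD8 cells. Rab4a stood at 17.4 and 9.42 TPM in CD4 KO, against 7.32 and 8.37 TPM in CD4 WT, and at 15.5 and 18.6 TPM in CD8 KO, against 3.82 and 2.83 TPM in CD8 WT. Every KO library lay above every WT library, and the average of 1.36 ± 0.36 did not pass (limma, adjusted p = 0.0644).

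Rab4b, the far more abundant form, stood at 224 and 230 TPM in CD4 KO, against 553 and 542 TPM in CD4 WT, and at 370 and 389 TPM in CD8 KO, against 501 and 359 TPM in CD8 WT. The groups lay far apart in CD4 cells and overlapped in CD8 cells. The difference was -1.27 ± 0.27 in CD4 cells (SE, limma, adjusted p = 0.0748), -0.16 ± 0.27 in CD8 cells (adjusted p = 0.802) and -0.71 ± 0.19 on average (adjusted p = 0.0700). It was called in CD4 cells with median-of-ratios scaling, with library weights, with only the CD4 libraries in the fit and without either CD8 WT library, the adjusted p then lying between 0.00377 and 0.0495. Of its 50-base words 58.1% also occur in other transcripts, chiefly a readthrough gene on the same strand (Gm21983), so that its level is uncertain.

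Rab4a accordingly made up 7.20% and 3.94% of the Rab4 total in CD4 KO, against 1.31% and 1.52% in CD4 WT. In CD8 cells it made up 4.03% and 4.56% in KO, against 0.758% and 0.782% in WT. The share in every KO library was above that in every WT library, in both lineages; no test was made of the share, which was examined after the levels were seen.

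The Rab5 genes, which drive fusion of early endosomes, were mostly higher in KO. Rab5b stood at 254 and 308 TPM in CD4 KO, against 108 and 227 TPM in CD4 WT, and at 136 and 202 TPM in CD8 KO, against 97.6 and 65.8 TPM in CD8 WT. Rab5a stood at 45.2 and 36.7 TPM in CD4 KO, against 34.2 and 15.0 TPM in CD4 WT, and at 26.8 and 53.5 TPM in CD8 KO, against 16.1 and 25.1 TPM in CD8 WT. For both genes the KO libraries lay above the WT libraries in each lineage. The averages of 0.94 ± 0.29 for Rab5b and 0.85 ± 0.36 for Rab5a did not pass (SE, limma, adjusted p = 0.0952 and 0.198), and Rab5c differed by 0.01 ± 0.23 (adjusted p = 0.984). The remaining early endosomal genes, Rab14, Rab21, Rab22a and Rab31, differed on average by -0.60 to -0.01.

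All 7 tested Rabs of recycling and of traffic to the plasma membrane were lower on average: Rab8a, Rab8b, Rab10, Rab11a, Rab11b, Rab25 and Rab35. Their median was -0.23, against -0.07 for all genes, and 0 were called (limma, 1 at an unadjusted p under 0.05). Among all genes 4.12% were called and 22.6% had an unadjusted p under 0.05. Over all Rabs 28 of 44 were lower on average. In the same libraries, all 7 recycling Rabs remained lower with median-of-ratios scaling, and 6 of 7 after a trend with genomic span was removed. Rab8b, which shares functions with Rab8a, was at 62.1 and 88.2 TPM in CD4 KO, against 101 and 106 TPM in CD4 WT, and at 93.4 and 92.0 TPM in CD8 KO, against 94.2 and 175 TPM in CD8 WT. The KO libraries lay below the WT libraries, in CD8 cells by less than 1 TPM for the nearest pair (average -0.47 ± 0.25, adjusted p = 0.309). Rab10, Rab25 and Rab35 differed on average by -0.48, -0.22 and -0.15. Rab25 was higher in CD4 cells (0.62) and lower in CD8 cells (-1.05). Its CD8 values were 0 and 0 TPM in KO, against 0 and 3.31 TPM in WT.

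Of the Rabs of late endosomes, lysosomes and related organelles 6 were tested and 0 called in the average (limma), with 2 higher and 4 lower. An unadjusted p under 0.05 was found for 2 of the 6, against 22.6% of all genes. Rab7, which matures endosomes into lysosomes, stood at 295 and 273 TPM in CD4 KO, against 419 and 342 TPM in CD4 WT, and at 382 and 404 TPM in CD8 KO, against 389 and 614 TPM in CD8 WT (average -0.36 ± 0.21, adjusted p = 0.348). Its highest value was in the library labelled CD8 WT replicate 2. Rab24, linked to autophagy, stood at 9.69 and 5.43 TPM in CD4 KO, against 17.0 and 10.6 TPM in CD4 WT, and at 8.63 and 10.2 TPM in CD8 KO, against 22.4 and 23.6 TPM in CD8 WT. Every KO library lay below every WT library, by -1.0 ± 0.34 on average (limma, adjusted p = 0.121), and 49.6% of its 50-base words are antisense to Prelid1. Rab9, which returns receptors from late endosomes to the Golgi, differed by -0.54 ± 0.23 (adjusted p = 0.194), and Rab12 and Rab32 each by 0.34.

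The 6 tested Rabs of regulated secretion were Rab3a, Rab3d, Rab26, Rab27a, Rab37 and Rab44. Apart from Rab27a none was called in the average, and the others ranged from -0.91 (Rab44) to 1.30 (Rab26). Rab27b, the close relative of Rab27a, was below 1 TPM on average, so that Rab27a made up at least 98.3% of the pair in every library. The remaining tested genes were Rab23, a ciliary Rab, and Rab40c, which differed by 0.16 ± 0.41 and 0.60 ± 0.47 on average and did not pass (limma, adjusted p = 0.851 and 0.487).

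Over the family, 4 Rab genes lay above WT without overlap in both lineages (Rab4a, Rab5a, Rab5b and Rab33b), where 8.93% of all genes did. A total of 8 lay below WT in both (Rab6b, Rab8b, Rab11b, Rab18, Rab24, Rab27a, Rab28 and Rab30), where 11.1% of all genes did. The CD4 and the CD8 comparison share no library, but whether they share mice was not stated by any source used here.

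The second question was whether the KO difference itself depended on the lineage. The test of the difference between the CD8 and the CD4 effect called 0 of 44 Rab genes (limma, 3 at an unadjusted p under 0.05, against 6.95% of all genes), where 0.0% of all genes were called. Without CD8 WT replicate 1 it called 7. The 3 with the lowest p were Rab6a, Rab7l1 and Rab4b. Rab6a, which moves vesicles back from the Golgi and out to the surface, stood at 135 and 140 TPM in CD4 KO, against 75.7 and 107 TPM in CD4 WT, but at 41.5 and 51.5 TPM in CD8 KO, against 81.5 and 99.7 TPM in CD8 WT. The groups did not overlap in either lineage and lay in opposite directions, a difference of effects of -1.55 ± 0.45 (SE, limma, adjusted p = 0.693). Part of its transcript, 17.7% of its 50-base words, is antisense to Mrpl48.

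Rab7l1, which acts with the kinase LRRK2 at the Golgi and lysosomes, ran the other way. It stood at 50.6 and 64.1 TPM in CD4 KO, against 115 and 122 TPM in CD4 WT, and at 169 and 135 TPM in CD8 KO, against 122 and 51.0 TPM in CD8 WT. The difference of effects was 1.97 ± 0.58 (SE, limma, adjusted p = 0.696), and for Rab4b it was 1.11 ± 0.39 (adjusted p = 0.701). All 3 passed only without CD8 WT replicate 1, which leaves the library with the high myeloid and erythroid markers as the sole CD8 WT library (adjusted p = 0.0406 for Rab6a, 0.0119 for Rab7l1 and 0.0217 for Rab4b). Rab6a and Rab7l1 were the only Rab genes whose groups lay apart in opposite directions in the 2 lineages, as 5.75% of all genes did.

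Genomic span moved with these differences. Over all genes tested, 38.8% of those under 20 kb were lower on average in KO, against 81.6% of those of 50 to 100 kb and 89.7% of those of at least 100 kb. Of the 8 Rab genes of 50 to 100 kb, Rab2a, Rab6b, Rab8b, Rab10, Rab27a, Rab28, Rab30 and Rab37, 7 were lower, Rab37 being the exception. Their median was -0.69, against -0.48 for all genes of that span. The 19 Rab genes under 20 kb had a median of -0.06, against 0.16 for all genes of that span.

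After the smooth trend of each library with log10 span had been subtracted, Rab28 differed by -1.24 (limma, adjusted p = 0.136) and Rab27a by -0.54 (adjusted p = 0.140), and neither was called. In that setting 1 Rab gene was called, Rab4b. What underlies the trend with span was not tested.

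**Figure D4:**
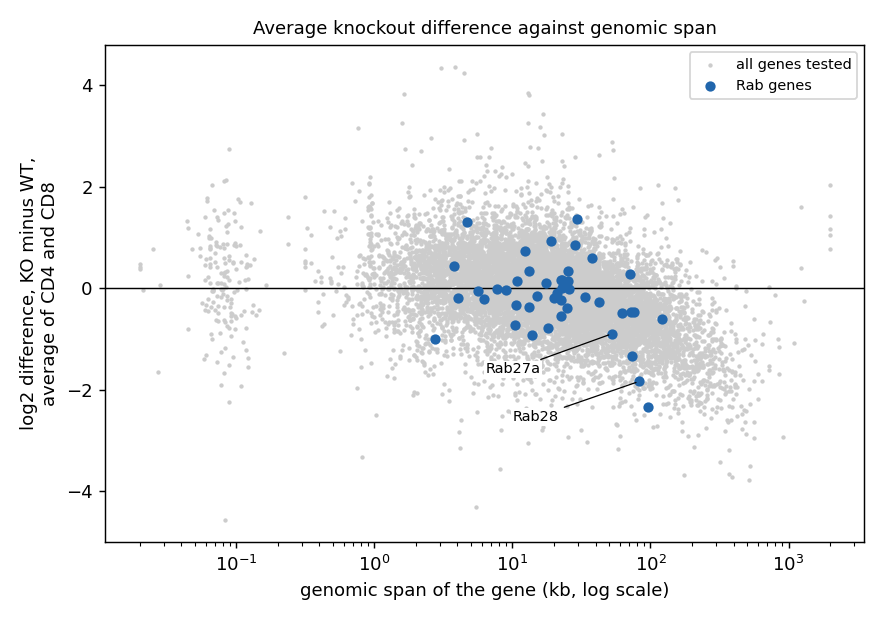
Average difference KO minus WT on the log2(TPM + 1) scale against genomic span in kb (log axis), for all 11786 genes tested (grey) and the 44 Rab genes (blue). Longer genes lie lower: 89.7% of all genes of at least 100 kb are below 0, and Rab28 and Rab27a lie among the Rabs of 50 to 100 kb.

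Markers of other cells moved with genotype in part. The 10 B cell markers summed to 2129 and 2014 TPM in CD4 KO, against 2948 and 3269 TPM in CD4 WT, and the 12 neutrophil and macrophage markers to 1291 and 2197 TPM in CD4 KO, against 264 and 73.8 TPM in CD4 WT. In CD8 cells, B cell markers summed to 527 and 544 TPM in KO, against 473 and 1324 TPM in WT, and neutrophil and macrophage markers to 1157 and 1553 TPM in KO, against 658 and 30101 TPM in WT. T cell markers summed to 4900 and 5237 TPM in CD4 KO, against 7354 and 6627 TPM in CD4 WT. In CD8 cells they summed to 7372 and 6602 TPM in KO, against 7363 and 3151 TPM in WT. Erythroid markers summed to 383 and 213 TPM in CD4 KO, against 16.2 and 107 TPM in CD4 WT. In CD8 cells they ran the other way, at 211 and 346 TPM in KO, against 2253 and 93184 TPM in WT. Natural killer cell markers summed to 14.4 and 13.9 TPM in CD4 KO, against 5.47 and 2.37 TPM in CD4 WT, and overlapped in CD8 cells. None of the 10 B cell markers was listed at 0 in a CD4 library. Their part in the Rab differences was not tested.

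Rab30 and Rab44 had their highest values by far in the library that stood apart. Rab30, a Golgi Rab, stood at 0.160 and 0 TPM in CD8 KO, against 3.00 and 81.4 TPM in CD8 WT. In the other lineage it stood at 2.92 and 4.69 TPM in CD4 KO, against 5.32 and 7.16 TPM in CD4 WT. The value of 81.4 TPM in the library labelled CD8 WT replicate 2 was the highest, but its partner also lay above both CD8 KO libraries. The difference was -4.08 ± 1.14 in CD8 cells (SE, limma, adjusted p = 0.180), without that library it was -1.89 (adjusted p = 0.204) and without its partner -6.26 (adjusted p = 0.00292).

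Rab44, an unusually large Rab described in mast cells and other leukocytes, stood at 0 and 0.0493 TPM in CD8 KO, against 0 and 46.5 TPM in CD8 WT. Its CD4 values were 0.797 and 1.05 TPM in CD4 KO, against 0 and 0.0213 TPM in CD4 WT. It was thus near 0 outside 1 library, and the difference did not pass (adjusted p = 0.398 in CD8 cells). Of the tested members, Rab1, Rab7, Rab8b, Rab9, Rab24, Rab31 and Rab33a also had their highest value in that library. Rab1b, Rab2b, Rab3a, Rab4a, Rab5b, Rab8a, Rab11a, Rab23, Rab33b and Rab40c had their lowest value there. Of these, Rab4a, Rab5b, Rab8b, Rab24 and Rab33b are among the genes without overlap in both lineages. The part of its neutrophil, macrophage and erythroid markers in these values was not tested.

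**Figure D5:**
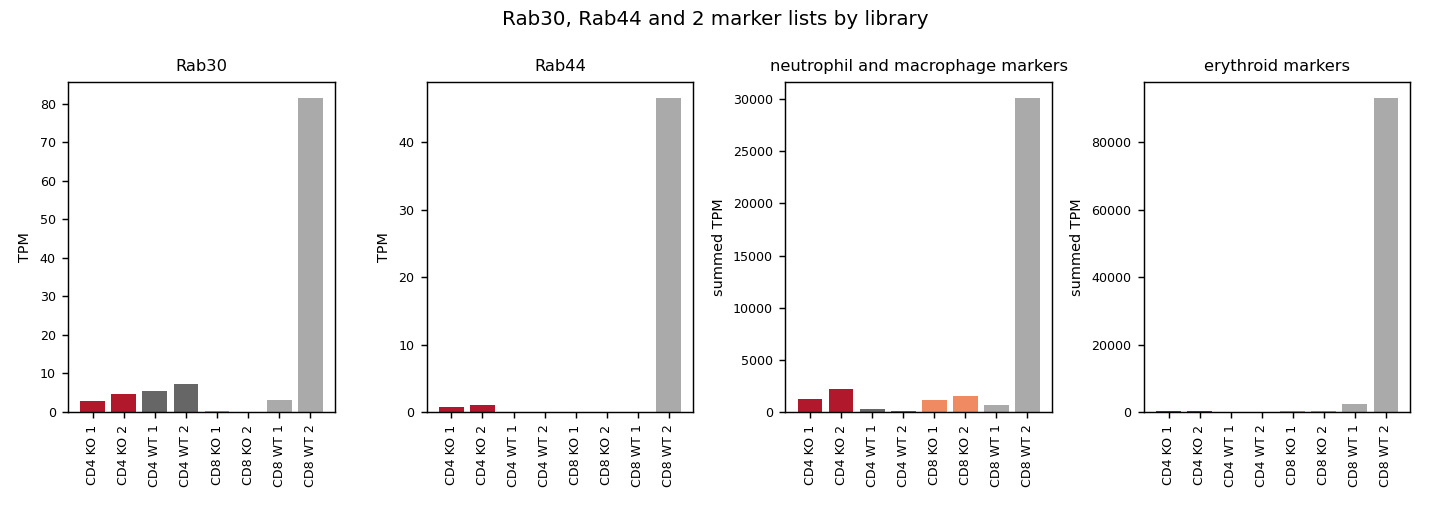
TPM of Rab30 and Rab44 and the summed TPM of the 12 neutrophil and macrophage markers and the 10 erythroid markers in each of the 8 libraries (bars from 0). The library labelled CD8 WT replicate 2 is highest in all 4 panels, at 81.4, 46.5, 30101 and 93184 TPM.

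The third comparison was CD8 against CD4 cells in WT mice. It called 0 of 44 Rab genes (limma, 2 at an unadjusted p under 0.05, against 8.67% of all genes), where 0.195% of all genes were called. The Rab median was -0.02, with 22 higher and 22 lower, against a median of -0.26 over all genes. With median-of-ratios scaling the medians were 0.26 for Rab genes and 0.02 for all genes. Without CD8 WT replicate 1, 6 Rab genes were called. Both CD8 WT libraries lay above both CD4 WT libraries for 4 Rab genes (9.53% of all genes) and below for 9 (24.8% of all genes). The WT groups also differed in markers of other cells. B cell markers summed to 473 and 1324 TPM in CD8 WT, against 2948 and 3269 TPM in CD4 WT. Erythroid markers summed to 2253 and 93184 TPM in CD8 WT, against 16.2 and 107 TPM in CD4 WT. The part of such cells in the differences between WT lineages was not tested.

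Rab27a had the lowest p, at 185 and 131 TPM in CD8 WT, against 377 and 323 TPM in CD4 WT. The groups did not overlap, and the difference of -1.16 ± 0.29 did not pass (SE, limma, adjusted p = 0.254), though it did without CD8 WT replicate 1 (-1.40, adjusted p = 0.0128). The next were Rab5b, at 97.6 and 65.8 TPM in CD8 WT, against 108 and 227 TPM in CD4 WT (-0.96 ± 0.40, adjusted p = 0.568), and Rab4a, at 3.82 and 2.83 TPM in CD8 WT, against 7.32 and 8.37 TPM in CD4 WT (-1.04 ± 0.50, adjusted p = 0.596).

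The proteins that act on Rabs were set beside the family. Of the exchange factors outside TRAPP, 34 of 35 were tested and 1 fell in the average, Dennd1a, an exchange factor of Rab35 (limma, 8 at an unadjusted p under 0.05, 10 higher and 24 lower). Among all genes 4.12% were called and 22.6% had an unadjusted p under 0.05, so that the share called here was near the background. Dennd1a stood at 0.508 and 1.59 TPM in CD4 KO, against 10.6 and 10.5 TPM in CD4 WT, and at 0.140 and 2.50 TPM in CD8 KO, against 6.72 and 11 TPM in CD8 WT. All 4 KO libraries lay below all 4 WT libraries (-2.41 ± 0.50, limma, adjusted p = 0.0313). The next lowest p was that of C030046E11Rik, the older symbol of Ric1, part of the exchange factor of Rab6. It stood at 2.03 and 0.639 TPM in CD4 KO, against 4.35 and 1.58 TPM in CD4 WT, and at 1.93 and 0.554 TPM in CD8 KO, against 6.96 and 10.1 TPM in CD8 WT. The groups overlapped in CD4 but not in CD8 cells (average -1.44 ± 0.50, limma, adjusted p = 0.128).

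Of the GTPase-activating proteins, 36 of 40 were tested and 1 fell, Rabgap1l (limma, 10 at an unadjusted p under 0.05, 9 higher and 27 lower), against 4.12% of all genes called and 22.6% at an unadjusted p under 0.05. Rabgap1l stood at 39.8 and 23.6 TPM in CD4 KO, against 93.0 and 104 TPM in CD4 WT, and at 20.7 and 28.7 TPM in CD8 KO, against 58.7 and 59.0 TPM in CD8 WT. The groups lay well apart in both lineages (-1.44 ± 0.26, limma, adjusted p = 0.0218). Tbc1d15, a GAP of Rab7, had the next lowest p, at 100.2 and 113 TPM in CD4 KO, against 199.6 and 165 TPM in CD4 WT, and at 99.8 and 133 TPM in CD8 KO, against 188 and 289 TPM in CD8 WT. All 4 KO libraries lay below all 4 WT libraries, but the average did not pass (-0.89 ± 0.23, limma, adjusted p = 0.0593).

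Both called regulators are very long genes, Dennd1a spanning 488 kb and Rabgap1l 574 kb. With the span trend removed Dennd1a differed by -0.86 (limma, adjusted p = 0.406) and Rabgap1l by 0.19 (adjusted p = 0.754), and the lists then held 16 higher and 18 lower exchange factors and 18 higher and 18 lower GAPs. Both calls were also lost without any single CD4 library or either CD8 KO library, the adjusted p lying between 0.0749 and 0.176 for Dennd1a and between 0.0830 and 0.111 for Rabgap1l.

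Of the 9 proteins that prenylate Rabs, escort them or extract them from membranes, all were tested and 0 called (limma, 2 at an unadjusted p under 0.05, against 22.6% of all genes). Rabggtb, a subunit of the enzyme that attaches the lipid anchor to Rabs, stood at 145 and 161 TPM in CD4 KO, against 91.5 and 95.1 TPM in CD4 WT, and at 204 and 149 TPM in CD8 KO, against 105 and 89.8 TPM in CD8 WT. Chm, a Rab escort protein, stood at 10.8 and 11.8 TPM in CD4 KO, against 46.9 and 32.6 TPM in CD4 WT, and at 20.2 and 7.35 TPM in CD8 KO, against 28.4 and 19.6 TPM in CD8 WT. Rabggtb was higher in every KO library than in any WT library (0.77 ± 0.21, adjusted p = 0.0677). Chm was lower without overlap in CD4 cells and with overlap in CD8 cells (-1.30 ± 0.36, adjusted p = 0.0760).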

How the data were processed

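HISAT alignment to mm10 is named in the submitters' processing notes. Per the file headers, the authors deposited for each library a table with TPM, FPKM and coverage per gene. The deposited TPM, a length-corrected share of transcripts, was the main measure. The deposited FPKM, a length-corrected fragment density, served as an alternative, and the deposited coverage, a mean read depth, gave the aligned bases together with FPKM. The program that made the tables and its use of strand were not stated by any source used here. The design allowed for counts, but the tables hold none, so limma was used. TPM keeps no read counts, so no counting interval or floor can be given.

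Rows of the same symbol were summed. Genes averaging 1 TPM or more over the libraries were fitted as log2(TPM + 1), which understates changes of low genes, with limma 3.58.1 (R 4.3.3), an intensity trend and 1 mean per group over all 8 libraries (4 residual degrees of freedom, prior 5.68). P-values, two-sided, were adjusted by the Benjamini-Hochberg method over 11786 genes and called at 0.05. The steps were tested on simulated data. Rab members, lists and tests were chosen with earlier results of these data known.

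Values per library are given for called members, the 5 lowest p in each KO comparison, the 3 lowest in the other 2, the 8 highest in WT, the TRAPP list, and called or 2 lowest-p genes per list of regulators and effectors. Other members are given by ranges and counts, and values of Rab5a, Rab6b, Rab8b, Rab24 and Rab44 were added after they were seen. Alternatives changed the pseudocount, filter, scaling, unit, weights, trend, samples, replicate block, span trend and each library left out. Sequences are from RefSeq (GRCm38.p6).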

Additional observations from a re-analysis of the deposited data

How the results depend on the processing

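With 2 libraries a group, both Rab calls sat near the threshold. In the average of the KO comparisons the count of called Rab genes moved from 2 to 0 without a filter and without the intensity trend, to 6 with median-of-ratios scaling, to 4 with FPKM, and to 1 with library weights (Rab27a), with the replicate block (Rab28) and with the span trend removed (Rab4b). In CD4 cells it moved from 0 to 1 with median-of-ratios scaling, 6 with library weights and 2 with the CD4 libraries alone. Leaving out a library gave 0 to 3 in CD4 cells, 0 to 7 in CD8 cells, 0 to 11 in the average, 0 to 7 for the difference of effects and 0 to 6 between WT lineages.

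Over all genes, calls in CD4 cells were 84 (22 higher, 62 lower), and 0 without a filter, 141 with median-of-ratios scaling (62 higher, 79 lower), 1260 with library weights, 5 without the trend, 243 with the CD4 libraries alone, 29 with the replicate block and 25 with the span trend removed (19 higher, 6 lower). In CD8 cells they were 35, and 0 without a filter, with library weights or with the CD8 libraries alone, and 15 without the trend. In the average they were 485 (160 higher, 325 lower), and 26 without a filter, 755 with median-of-ratios scaling (340 higher, 415 lower), 312 without the trend and 143 with the span trend removed (90 higher, 53 lower). Between WT lineages they were 23, and 1 without a filter, 15 with library weights, 4 without the trend and 0 with the WT libraries alone. Leaving out a library gave 0 to 768, 0 to 1842, 0 to 1798 and 0 to 1629 calls in these comparisons and 0 to 1148 for the difference of effects. The causes were not tested.

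For single genes, Trappc1 in CD8 cells ran from -0.66 (without CD8 WT replicate 2) to 0.33 (without replicate 1), and Rabgap1l in the average turned to 0.19 with the span trend removed. Replicate numbers gave no sign of pairing: the differences of replicate 1 and 2 correlated between groups by -0.036 to 0.094. These values cannot show whether groups shared mice, as the numbers need not follow mice. TPM gives no counting error, so the depth limit of weak genes is unknown.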

Other observations

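Of 53 listed effectors, the proteins that active Rabs recruit, 41 were tested, with 14 higher and 27 lower in the average of the knockout comparisons and a median of -0.24. Vps41, a subunit of the HOPS tether that joins late endosomes to lysosomes under Rab7, was the only one called (limma), where 4.12% of all genes were called. It stood at 28.6 and 24.6 TPM in CD4 KO, against 130 and 120 TPM in CD4 WT, and at 49.7 and 49.3 TPM in CD8 KO, against 125 and 43.6 TPM in CD8 WT. The groups lay far apart in CD4 cells, and in CD8 cells the WT libraries enclosed the KO libraries. The average difference was -1.38 ± 0.32 (SE, limma, adjusted p = 0.0458). The gene spans 150 kb, and with the span trend removed the difference was -0.47 (adjusted p = 0.447); without any single CD4 library or either CD8 KO library the adjusted p lay between 0.136 and 0.193. Golga4, a Golgi tether, had the next lowest p, at 18.4 and 9.26 TPM in CD4 KO, against 39.1 and 30.7 TPM in CD4 WT, and at 9.28 and 19.7 TPM in CD8 KO, against 31.1 and 37.2 TPM in CD8 WT. All 4 KO libraries lay below all 4 WT libraries, but the average did not pass (-1.30 ± 0.35, limma, adjusted p = 0.0673).

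Between the lineages of WT mice, Sytl3, a synaptotagmin-like protein that binds Rab27a, was higher in CD8 cells, where 0.195% of all genes were called. It stood at 63.2 and 72.1 TPM in CD8 WT, against 1.14 and 2.81 TPM in CD4 WT, without overlap (4.58 ± 0.46, limma, adjusted p = 0.00508). The difference was called in 15 of 19 other settings, not without CD4 WT replicate 1 or 2, without a filter, or with only the WT libraries, where the adjusted p was 0.0631 to 0.516. In KO mice it stood at 47.1 and 35.8 TPM in CD8 cells and at 6.05 and 5.28 TPM in CD4 cells. Rab27a ran the other way between the lineages, at 158 ± 38.0 TPM in CD8 WT and 350 ± 38.2 TPM in CD4 WT (SD, n = 2 each), a difference that did not pass.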
